A study of Homo sapiens with 6 samples.

Results

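From a table of 60676 genes, 10 well-known long noncoding RNA genes were followed: *MALAT1*, *NEAT1*, *MIAT*, *H19*, *MEG3*, *KCNQ1OT1*, *GAS5*, *SNHG1*, *DLEU2* and *FAM30A*. Of these, 9 were chosen as abundant, nuclear body, imprinted or host transcripts, with earlier results of these data known. *FAM30A* was added because it had the strongest noncoding increase in these same libraries, so its values are given as a description and without a test. RNA was sequenced from the human neuroblastoma line SK-N-BE, in which retinoic acid brings out neuronal traits. All cells had differentiated for 1.5 days in medium with 10 μM retinoic acid. The 3 si-SCR libraries came from cells given a scrambled small interfering RNA, and the 3 si-CyCoNP libraries from cells given a pool of small interfering RNAs against the second exon of CyCoNP, a long noncoding RNA made from *LINC02381*. The comparison asked how other noncoding transcripts differed once CyCoNP was reduced. The cells are 1 line, and no source says whether the 3 libraries of a group came from separate cultures, so p-values measure only the spread between these libraries.

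Long noncoding RNAs act through the RNA itself. *MALAT1* gathers in nuclear speckles beside splicing factors, *NEAT1* is the scaffold on which paraspeckles are built, and *MIAT* lies in its own nuclear domains and binds splicing factors. *H19*, *MEG3* and *KCNQ1OT1* are imprinted, that is, each is read from the chromosome inherited from 1 parent only, beside imprinted genes that code for proteins. *GAS5* and *SNHG1* carry small nucleolar RNAs (snoRNAs) in their introns while the spliced remainder is broken down by nonsense-mediated decay, and *DLEU2* carries miR-15a and miR-16-1.

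The sequences that mark these classes are shown first. *MALAT1* and the long form of *NEAT1* end without a usual poly(A) tail, in a U-rich stretch that folds with a genomically encoded A-rich stretch into a triple helix. Both 3′ ends are given as 110 bases of the GENCODE v44 transcripts MALAT1-202 (chr11:65506007-65506116) and NEAT1-202 (chr11:65445431-65445540), GRCh38, plus strand, each inside the only exon of its transcript. Capitals mark TTTTGCTTTT and AAAAAGCAAAA.
MALAT1: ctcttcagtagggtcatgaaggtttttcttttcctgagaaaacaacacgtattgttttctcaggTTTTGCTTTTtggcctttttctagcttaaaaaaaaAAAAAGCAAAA
NEAT1: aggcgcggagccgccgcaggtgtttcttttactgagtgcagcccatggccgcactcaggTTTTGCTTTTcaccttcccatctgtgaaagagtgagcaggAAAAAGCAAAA
The longest word in both stretches had 16 bases and held the U-rich word. Both words were taken from these stretches, so *MALAT1* and *NEAT1* hold them by construction. Of 18800 long noncoding RNA genes, 3 (0.016%) had a transcript with both words in this order and within 110 bases: *MALAT1*, *NEAT1* and *TALAM1*, which runs over the same bases on the opposite strand of *MALAT1*. The annotation places a small RNA of 57 bases directly after the *MALAT1* stretch (chr11:65506117-65506173), and it had no count in any library. All its bases lie in the *MALAT1* exon on the same strand, so it was not measured apart from *MALAT1*.

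*MIAT* is marked by repeats of UACUAAC, which is the branch point sequence read by the splicing factor SF1. Of the 7 copies in MIAT-218, 4 lie in the 209 bases below, in the last of its 5 exons (chr22:26672025-26672233, GRCh38, plus strand), with TACTAAC in capitals.
MIAT: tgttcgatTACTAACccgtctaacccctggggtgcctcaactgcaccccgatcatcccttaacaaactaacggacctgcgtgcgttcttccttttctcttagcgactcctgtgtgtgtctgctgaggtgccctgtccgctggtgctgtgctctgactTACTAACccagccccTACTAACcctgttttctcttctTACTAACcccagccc
Among 8918 long noncoding RNA genes with a transcript of at least 1000 bases, 7.69% held the word at least once on the transcript strand, and 3 (0.0336%) held it 7 times or more. The cut of 7 was taken from *MIAT*, so *MIAT* is among the 3 by construction. MIAT-218 has 10143 bases, and these shares were not matched for length. A match of letters is not a bound site.

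The microRNAs of *DLEU2* share a seed, bases 2 to 8, in capitals (RefSeq, GRCh38.p14, minus strand, chr13:50049167-50049188 and chr13:50049027-50049048).
hsa-miR-15a-5p: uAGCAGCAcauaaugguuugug
hsa-miR-16-5p: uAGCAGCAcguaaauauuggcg

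Levels are given as FPKM, fragments scaled by exon length and library total, because only a value per length can be set between genes. The si-SCR libraries held 3762009 to 4782950 counts and the si-CyCoNP libraries 4146034 to 4799407. The siRNA target was reduced: *LINC02381* had 274, 208 and 315 counts in si-SCR against 20, 30 and 12 in si-CyCoNP, leaving 7.3% of the control level (log2 fold change -3.78, SE 0.19, adjusted p = 6.84e-14). Markers of the line moved as well. Of 11 neuroblastoma markers 8 were lower and 1 was higher in si-CyCoNP, and their summed level was 2930 to 3420 FPKM in si-SCR against 2340 to 2550 in si-CyCoNP. Of 8 mesenchymal markers 3 were higher and 2 lower, with summed levels of 104 to 124 and 102 to 107 FPKM. The 3 higher ones, *FN1* (0.697 to 5.41 FPKM), *COL3A1* (0.148 to 1.07) and *COL1A1* (0.45 to 1.5), passed the filter of 1 FPKM through si-CyCoNP only, and they add little to the sum. Of the 2 lower ones, *SNAI2* fell from 7.08 FPKM ± 1.42 to 3.07 ± 0.454 (log2 fold change -1.27, adjusted p = 9.76e-06). *COL1A2* and *PRRX1* were at 0 in every library. The share of counts from mitochondrially encoded genes was 7.81% ± 0.655 in si-SCR against 7.35% ± 0.141 in si-CyCoNP (SD, n = 3). In bulk RNA, fewer cells of a type and less RNA per cell cannot be told apart, and the part of these shifts in the results that follow was not tested.

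The word abundant fitted only some of the 10. *MALAT1* was first of 16739 long noncoding RNA genes by mean FPKM in si-SCR and *MEG3* and *GAS5* were 9th and 10th, without overlap between their libraries. *FAM30A* came 60th, *SNHG1* 75th and *NEAT1* 81st, the level of *SNHG1* overlapping those of both others. *DLEU2* followed at 2.13 FPKM ± 0.403, *KCNQ1OT1* at 0.953 ± 0.175 and *MIAT* at 0.54 ± 0.115 (SD, n = 3), each apart from the next. This order depends on the exon length used for scaling, 22767 bases for *NEAT1* and 91667 for *KCNQ1OT1* against 3970 for *SNHG1*. By counts in si-SCR, *NEAT1* (840, 664 and 745) and *KCNQ1OT1* (370, 391 and 344) stood above *SNHG1* (139, 101 and 186). *H19* was nearly absent, with 0, 1 and 1 counts in si-SCR against 2, 0 and 5 in si-CyCoNP. Together the 10 took 0.578% ± 0.0981 of all counts in si-SCR and 0.401% ± 0.0541 in si-CyCoNP, most of it from *MALAT1*.

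In all, 9 members passed the filter of a mean of at least 1 FPKM in either group, 2 of them (*MIAT* and *KCNQ1OT1*) only through si-CyCoNP, where they were higher. *H19* did not pass. Of the 8 tested members, *MIAT*, *KCNQ1OT1* and *SNHG1* were higher and *MALAT1*, *NEAT1* and *MEG3* were lower in si-CyCoNP by the threshold of 0.05 on the adjusted p, while *GAS5* and *DLEU2* did not pass. The same calls were made under each of the edgeR scalings. Over all 13966 tested genes 14.2% were higher and 14.2% lower by this rule, while of the 1448 tested long noncoding RNAs 8.29% passed as higher and 3.66% as lower, with a median log2 fold change of 0.18 against 0.01 over all genes. Counts of called genes in the lists that follow are to be set beside these shares. With library totals in place of the TMM scaling, 2465 genes were higher and 1574 lower, against 1982 and 1990. Of the 9 members other than *FAM30A*, 4 (*MALAT1*, *NEAT1*, *MIAT* and *SNHG1*) had groups that did not overlap in FPKM, as had 40.3% of all tested genes and 27.2% of the tested long noncoding RNA genes. With the added minimum of a log2 change beyond 1, *MIAT* alone of the 8 was left, against 2.28% of all genes higher and 2.98% lower, and 3.73% and 2% of the long noncoding ones.

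**Figure D1:**
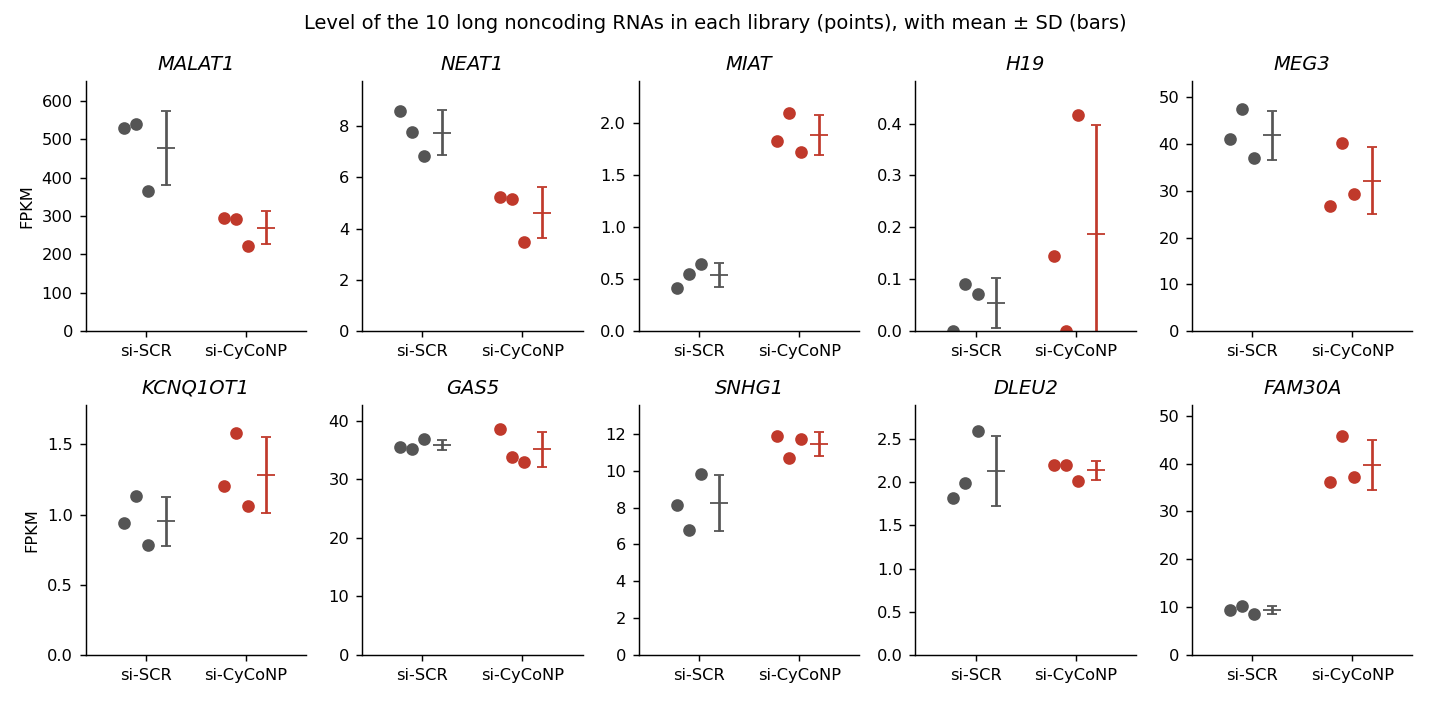
FPKM (linear axes from 0, a scale for each gene) of the 10 long noncoding RNAs in the 3 si-SCR and 3 si-CyCoNP libraries; points are libraries and bars the mean ± SD. *MALAT1* and *NEAT1* lay lower and *MIAT*, *SNHG1* and *FAM30A* higher in every si-CyCoNP library than in any si-SCR library, while the other 5 overlapped.

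*MALAT1* and *NEAT1*, the RNAs of the speckle and the paraspeckle, both fell. *MALAT1* stood at 528, 539 and 366 FPKM in si-SCR and at 295, 293 and 221 in si-CyCoNP. Every si-CyCoNP library was below every control, the third control being the lowest of its group. The level left was 53.7% of control (log2 fold change -0.90, SE 0.115, adjusted p = 8.37e-07). *NEAT1* stood at 8.59, 7.75 and 6.84 FPKM in si-SCR and at 5.23, 5.16 and 3.47 in si-CyCoNP, again with no overlap. It kept 57.1% of the control level (log2 fold change -0.81, SE 0.118, adjusted p = 5.86e-06). *MALAT1* counts were 8077 to 20028 a library and those of *NEAT1* 328 to 840, so counting error was small beside the spread between libraries. Both stayed past the threshold under each of the 15 alternatives run, with log2 fold changes of -1.07 to -0.78 and -0.91 to -0.65.

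The ratio of *MALAT1* to *NEAT1* in FPKM was 61.5, 69.5 and 53.5 in si-SCR against 56.3, 56.9 and 63.5 in si-CyCoNP, overlapping ranges (difference of log2 ratios -0.06, exact permutation test, two-sided, p = 0.7, where 3 against 3 libraries cannot give less than 0.1). Leaving out si-SCR replicate 2 turned the sign of this difference, to 0.04. The genes are neighbours on chromosome 11, with 52.1 kb between the end of *NEAT1* and the start of *MALAT1*. Of their neighbours, 2 that lie close by did not pass the test: *FRMD8*, which codes for an adaptor of a cell surface protease, had a log2 fold change of 0.04 (SE 0.208) and *LTBP3*, which binds latent TGF-β, -0.21 (SE 0.135). Of 36 tested protein-coding genes within 500 kb of *MALAT1*, 3 were higher and 4 lower, with a median of 0.01, against 14.2% of all tested genes in each direction. Those called included *PCNX3* (0.97) and *TM7SF2* (-1.55). *FOSL1*, also called higher (0.152 to 1.28 FPKM), passed the filter of 1 FPKM through si-CyCoNP only. These neighbours were chosen after values had been seen. Union exon counts cannot separate the short from the long form of *NEAT1*, and the 8829 bases by which the table scaled *MALAT1* are fewer than the 10434 of GENCODE v44, which changes its FPKM but not its fold change.

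Of the genes of 26 paraspeckle proteins, all tested, 9 were higher and 2 lower with a median log2 fold change of 0.20, against 14.2% of all tested genes in each direction. The core trio did not pass: *SFPQ* was at 53.7 FPKM ± 6.66 in si-SCR against 64.9 ± 0.845 in si-CyCoNP (SD, n = 3, log2 fold change 0.20, SE 0.085, adjusted p = 0.0749), *NONO* had a log2 fold change of -0.03 (SE 0.075) and *PSPC1* of -0.07 (SE 0.11). *SFPQ* passed with library totals alone, with the replicate number as a block, and without si-SCR replicate 1 or 3 (adjusted p = 0.0075 to 0.042). *HNRNPH3*, an hnRNP that binds G-rich RNA, rose from 25.7 ± 2.53 to 40.3 FPKM ± 1.08 (log2 fold change 0.58, adjusted p = 6.88e-06). The chromatin remodeller *SMARCA4*, *HNRNPUL1* and the RNA-binding *DAZAP1* rose by 0.38 to 0.39 on the log2 scale. The cold-inducible RNA-binding proteins *CIRBP* (-0.32) and *RBM3* (-0.30) were the 2 that fell. The count of higher members dropped to 5 without si-SCR replicate 2 or without si-CyCoNP replicate 1. That of lower members dropped to 0 without si-SCR replicate 1, si-CyCoNP replicate 2 or si-CyCoNP replicate 3. It was also 0 with library totals alone and in both limma fits.

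Of 26 nuclear speckle and splicing proteins 25 were tested, and 3 were higher and 2 lower with a median of 0.09, shares below those over all genes. *RNPS1*, a splicing activator of the exon junction complex, rose by 0.36 on the log2 scale. *RBM25*, a speckle protein, passed at 0.24 but not without si-SCR replicate 2 or any 1 of the si-CyCoNP libraries (adjusted p = 0.0547 to 0.152), nor in DESeq2. *SRSF6*, an SR splicing factor, had a log2 fold change of -0.25 (SE 0.089, adjusted p = 0.037). It no longer passed without si-SCR replicate 3, si-CyCoNP replicate 2 or si-CyCoNP replicate 3, nor in DESeq2 or limma. With library totals alone 8 were higher and 0 lower, so the split between directions depended on the scaling.

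*MIAT* rose from the lowest tested level of the 10. It had 0.419, 0.554 and 0.646 FPKM in si-SCR against 1.83, 2.1 and 1.72 in si-CyCoNP, from 25, 29 and 43 counts and 122, 124 and 99 counts. The lowest si-CyCoNP library lay well above the highest control. The fitted fold was 3.31 (log2 fold change 1.73, SE 0.194, adjusted p = 9.52e-08), and *MIAT* moved from rank 1810 to rank 635 among long noncoding RNA genes. Because it passed the filter through the group in which it was high, the fit with the default filter of edgeR bears on it, and there the log2 fold change was 1.72 with an adjusted p of 1.51e-06. On log2(FPKM + 1) it was 0.90, since the pseudocount is above the control level. *MIATNB*, which overlaps the end of *MIAT* on the same strand by 241 exon bases, had 23, 15 and 26 counts in si-SCR against 39, 32 and 26 in si-CyCoNP, and an antisense gene inside *MIAT* had 0 to 2. The splicing factors known to bind *MIAT* moved little. *QKI*, a regulator of alternative splicing, rose from 7.66 FPKM ± 0.18 to 9.86 ± 0.281 (log2 fold change 0.30, adjusted p = 0.00775). *CELF3*, a neuronal splicing factor, fell from 18.1 ± 1.53 to 15.1 ± 1.68 (-0.33, adjusted p = 0.0138). *SF1*, the factor that reads the branch point sequence, had a log2 fold change of 0.07 (SE 0.085, adjusted p = 0.596). The call on *CELF3* was lost with library totals alone and without si-SCR replicate 1, si-SCR replicate 2 or si-CyCoNP replicate 3 (adjusted p = 0.0514 to 0.104). It was also lost in both limma fits.

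**Figure D2:**
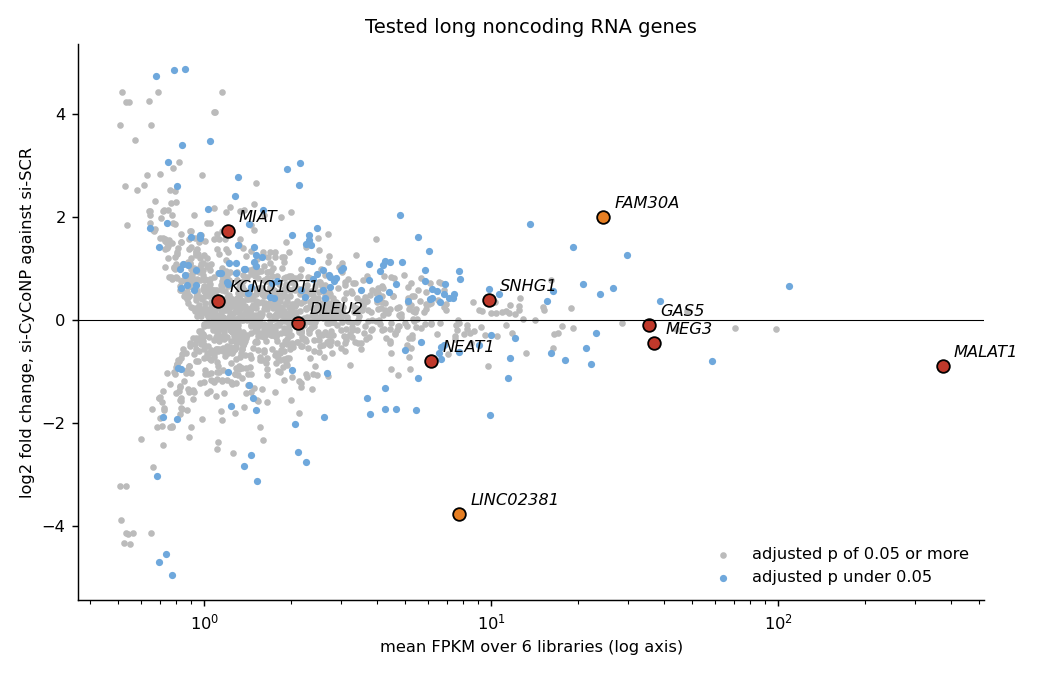
Log2 fold change (si-CyCoNP against si-SCR) over mean FPKM on a log axis for the 1448 tested long noncoding RNA genes, blue where the adjusted p is under 0.05. Red points are the 8 tested members; the 2 orange points are *FAM30A*, chosen on this contrast, and *LINC02381*, the siRNA target. *MALAT1* lies at the right edge with a log2 fold change of -0.90 and *MIAT* near 1 FPKM at 1.73.

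Among the imprinted RNAs, *MEG3* fell, *KCNQ1OT1* rose slightly and *H19* was too low to test. *MEG3*, a maternally expressed RNA with growth-restraining activity, had 41, 47.5 and 37.1 FPKM in si-SCR against 26.8, 40.3 and 29.4 in si-CyCoNP. The second si-CyCoNP library lay inside the control range, so the groups overlapped. The level left was 73.2% of control (log2 fold change -0.45, SE 0.109, adjusted p = 0.00236). DESeq2 gave an adjusted p of 0.103 and limma 0.144 and 0.148 for the same direction, while leaving out any 1 library kept the edgeR call.

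The noncoding RNAs that follow *MEG3* on the same strand of chromosome 14 share its imprint. *MEG8*, the host of a large snoRNA cluster, fell from 10.3 FPKM ± 0.882 to 7.77 ± 1.04 (log2 fold change -0.48, SE 0.094, adjusted p = 0.000286), with groups that did not overlap, and did not pass in limma (0.0604 and 0.0622). *MEG9*, at the far end, had a log2 fold change of 0.07 (SE 0.219). The 46 snoRNA genes summed to 96.8 CPM (counts scaled to the library) ± 6.75 in si-SCR against 71.3 ± 9.8 in si-CyCoNP, a log2 ratio of -0.44, and 28 were tested, of which 3 were lower and 0 higher with a median of -0.43 (4 lower and 0 higher in edgeR at an unadjusted p under 0.05, and 0 higher in DESeq2 and limma). *SNORD113-3* (-0.86), *SNORD114-20* (-0.40) and *SNORD114-21* (-0.68) were the 3, and all were lost in DESeq2. The first was also lost without si-SCR replicate 2, si-CyCoNP replicate 1 or si-CyCoNP replicate 3, *SNORD114-20* without si-SCR replicate 3, si-CyCoNP replicate 1 or si-CyCoNP replicate 2, and *SNORD114-21* without si-SCR replicate 1 or si-CyCoNP replicate 3 (adjusted p = 0.0503 to 0.245). The 53 microRNA genes summed to 30.3 CPM ± 4.51 and 25.7 ± 3.23, a log2 ratio of -0.24, and none of the 47 tested passed in edgeR, 0 of them also at an unadjusted p under 0.05, nor in DESeq2, while limma called 1 higher and 1 lower. These snoRNA genes are near-identical copies counted from unique reads only, in a library of long fragments, so single copies are uncertain. The region was delimited after values had been seen, and 3 of 28 is no larger a share than the 14.2% of all genes that were lower.

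On the paternally read side, *DLK1*, which codes for a Notch-like membrane protein, stood at 140 FPKM ± 20.7 and 125 ± 19 (log2 fold change -0.23, SE 0.101, adjusted p = 0.0896, but 0.000309 to 0.0349 without si-SCR replicate 1, si-SCR replicate 3 or si-CyCoNP replicate 2), and *RTL1* at 2.02 ± 0.813 and 1.9 ± 0.669. The ratio of *MEG3* to *DLK1* was 0.319, 0.29 and 0.29 in si-SCR against 0.256, 0.283 and 0.229 in si-CyCoNP (difference of log2 ratios -0.23, exact permutation test, two-sided, p = 0.1, the smallest possible here). That of *MEG3* to *MEG8* differed by 0.02 on the log2 scale (p = 1 in the same permutation test, a ratio added after values had been seen).

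**Figure D3:**
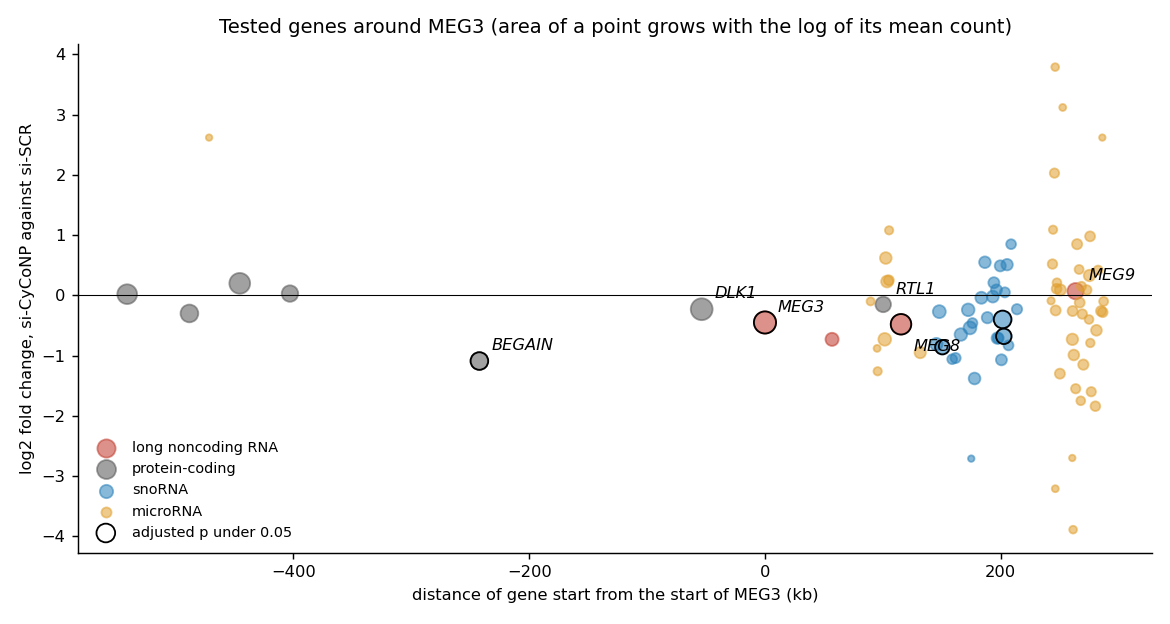
Log2 fold change of tested genes over the distance of their start from the start of *MEG3* in kb, coloured by class, with the area of a point growing with the log of the mean count and a black ring at an adjusted p under 0.05. *MEG3* (-0.45), *MEG8* (-0.48) and 3 snoRNA genes are ringed below 0, as is *BEGAIN* (-1.09) on the other strand; the widest spread is among microRNA genes with few counts.

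*KCNQ1OT1*, the antisense RNA that silences genes around *KCNQ1* on its own chromosome, had 370, 391 and 344 counts in si-SCR against 529, 615 and 402 in si-CyCoNP. In FPKM these are 0.94, 1.13 and 0.785 against 1.2, 1.58 and 1.06, with overlap between the groups. The log2 fold change was 0.36 (SE 0.128, adjusted p = 0.0343). The call was lost without si-CyCoNP replicate 2 (0.19, adjusted p = 0.34), without si-SCR replicate 3 (0.22, adjusted p = 0.0928), with the default filter of edgeR (adjusted p = 0.051), in DESeq2 (0.0825) and in limma. *KCNQ1* itself had 1 count in 1 library. *CDKN1C*, a cyclin-dependent kinase inhibitor of the same domain, had 2, 5 and 4 counts in si-SCR against 0, 0 and 2 in si-CyCoNP. Its groups overlapped, and at 0.354 FPKM ± 0.175 and 0.0649 ± 0.112 it was under the filter and not tested. *NAP1L4*, a nucleosome assembly protein at its edge, had a log2 fold change of 0.01 (SE 0.094).

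*IGF2*, the fetal growth factor that shares its enhancers with *H19*, was expressed where *H19* was not. It rose from 231 FPKM ± 29.6 to 390 ± 75.1 (SD, n = 3, log2 fold change 0.69, SE 0.1, adjusted p = 5.98e-06), with no overlap between groups. With *H19* at 0 to 5 counts and MIR675, the microRNA inside it, at 0, no fold change and no ratio of *H19* to *IGF2* is given. All bases of MIR675 are exon bases of *H19* on the same strand, so it was not measured apart from *H19*. Of 36 imprinted genes around and beyond these clusters 19 were tested, and 2 were higher and 5 lower, with a median of -0.14. *PEG10*, a retrotransposon-derived gene, rose with *IGF2* (log2 fold change 0.66, adjusted p = 1.29e-06). The zinc finger gene *ZDBF2* had the largest fall, from 10.5 FPKM ± 0.419 to 5.72 ± 0.542 (-0.94, adjusted p = 2.44e-08), followed by *NDN* (-0.62), *GNAS* (-0.60) and *SGCE* (-0.55). The call on *NDN*, a growth suppressor, was lost without si-SCR replicate 1 or 2 and without si-CyCoNP replicate 1 or 3 (adjusted p = 0.0873 to 0.187). It was also lost in DESeq2, in both limma fits and with library totals alone.

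The snoRNA hosts differed from each other. *GAS5*, whose spliced RNA can bind the glucocorticoid receptor, had 35.5, 35.1 and 36.8 FPKM in si-SCR against 38.5, 33.8 and 32.9 in si-CyCoNP. The control libraries lay within the si-CyCoNP range, and the log2 fold change was -0.10 (SE 0.085, adjusted p = 0.435), between -0.17 and -0.03 in the alternatives. *SNHG1* had 8.15, 6.76 and 9.8 FPKM in si-SCR against 11.9, 10.7 and 11.7 in si-CyCoNP, with no overlap (log2 fold change 0.39, SE 0.132, adjusted p = 0.025). With 101 to 226 counts a library, the call was lost without si-SCR replicate 2 (0.28, adjusted p = 0.157), without si-CyCoNP replicate 1 (0.36, 0.0865) or replicate 3 (0.37, 0.0748), in DESeq2 (adjusted p = 0.0711) and in limma. The ratio of *GAS5* to *SNHG1* was 4.36, 5.2 and 3.76 in si-SCR against 3.24, 3.17 and 2.82 in si-CyCoNP (difference of log2 ratios -0.52, exact permutation test, two-sided, p = 0.1, the smallest possible). The snoRNA genes annotated inside *SNHG1* share its exon bases and had no counts, so its snoRNAs were not measured.

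Of 29 other snoRNA host RNAs 28 were in the table and 23 tested, and 6 were higher and 0 lower with a median log2 fold change of 0.15. At an unadjusted p under 0.05 edgeR gave 7 higher and 1 lower, and neither DESeq2 nor limma called any lower after adjustment. *SNHG4* rose from 2.32 FPKM ± 0.689 to 5.18 ± 0.803 (log2 fold change 1.09, adjusted p = 0.000158), *SNHG20* from 0.892 ± 0.216 to 1.87 ± 0.293 (0.99, adjusted p = 0.00432), *SNHG12* by 0.65 and *SNHG3* by 0.51 on the log2 scale. *SNHG20* passed the filter through si-CyCoNP only, and *SNHG12* was no longer called without si-SCR replicate 2, si-SCR replicate 3 or si-CyCoNP replicate 3 (adjusted p = 0.0502 to 0.104). The higher members numbered 4 in DESeq2, 3 in limma with either pseudocount and 3 without si-CyCoNP replicate 3. The lower members numbered 2 without si-SCR replicate 3 and 1 with the replicate number as a block, so the absence of lower calls depended on the setting. Of 17 factors of nonsense-mediated decay, which removes such spliced hosts, 1 was higher (*DHX34*, 0.59) and 2 were lower (*UPF3B*, -0.54, and *SMG9*, -0.38), with a median of 0.01. *UPF1*, the central helicase, had 14.2 FPKM ± 0.994 in si-SCR against 13.4 ± 1.1 in si-CyCoNP (log2 fold change -0.15, SE 0.092, adjusted p = 0.251). The call on *UPF3B* was lost without si-SCR replicate 2 or si-CyCoNP replicate 1 and that on *SMG9* without si-CyCoNP replicate 2 or 3 (adjusted p = 0.0518 to 0.184). Both were lost in DESeq2 (adjusted p = 0.0601 and 0.0546) and in limma, and that on *SMG9* also with library totals alone.

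*DLEU2* showed no detectable difference. It had 1.82, 1.99 and 2.59 FPKM in si-SCR against 2.2, 2.2 and 2.01 in si-CyCoNP, all si-CyCoNP libraries lying inside the control range (log2 fold change -0.07, SE 0.153, adjusted p = 0.791). The sign turned in 3 alternatives, and values lay between -0.16 and 0.08. MIR15A and MIR16-1, the genes of the 2 microRNAs printed above, had no count, and a library of long fragments does not measure the mature forms. *TRIM13*, a ubiquitin ligase on the opposite strand of the same span, had 6.19 FPKM ± 0.844 and 5.44 ± 0.33 (log2 fold change -0.26, SE 0.124, adjusted p = 0.129, and 0.0306 without si-SCR replicate 3). *DLEU1*, also on the opposite strand, was at 0.109 and 0.147 FPKM and was not tested. Of 9 neighbours 6 were tested, and *RCBTB1* alone passed (-0.50, adjusted p = 0.00496), though not in limma (0.0893 and 0.0885). Of 10 cell cycle and survival genes known as targets of the shared seed, 9 were tested and 1 was higher and 2 lower, with a median of -0.06. *CDK6* fell from 42.5 FPKM ± 1.94 to 27.7 ± 1.63 (-0.68, adjusted p = 1.35e-07) and *CCND1*, a cyclin D, from 364 ± 18.4 to 288 ± 0.37 (-0.40, adjusted p = 8.29e-05), while the phosphatase gene *CDC25A* rose (0.44, adjusted p = 0.00593).

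**Figure D4:**
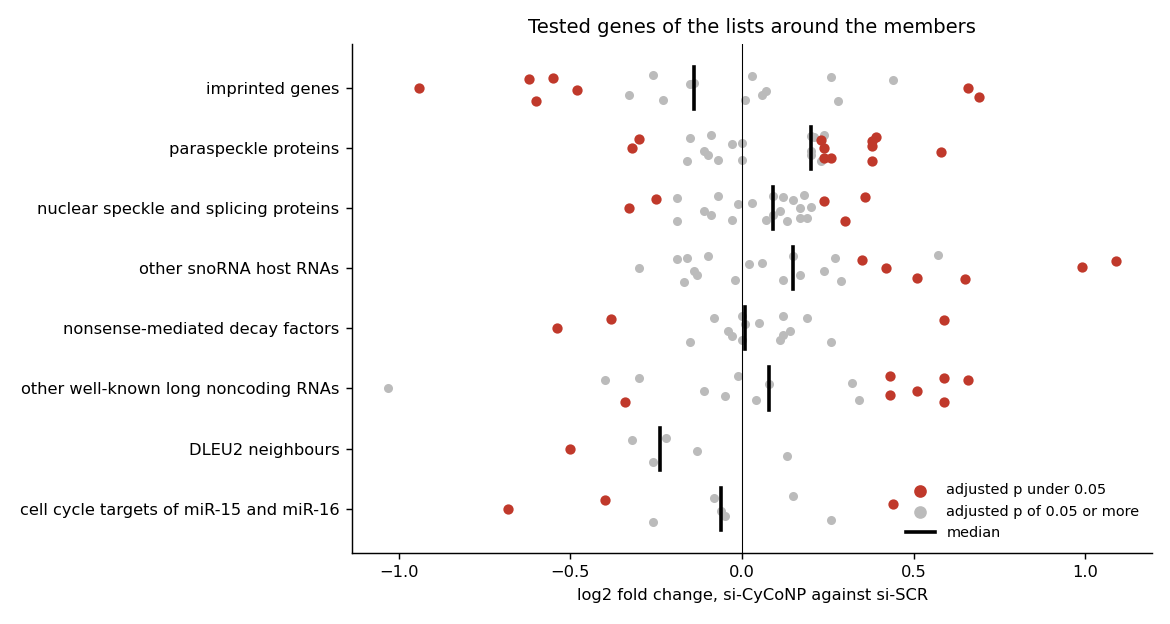
Log2 fold change of every tested gene of 8 lists, a row for each list, with the median as a black bar and red where the adjusted p is under 0.05 (vertical position within a row only separates points). Paraspeckle proteins have the highest median, 0.20, and other snoRNA hosts reach 1.09; imprinted genes are called on both sides of 0.

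*FAM30A* is a noncoding gene within the immunoglobulin heavy chain locus of chromosome 14, best known from lymphoid and blood cells. It had 9.49, 10.2 and 8.61 FPKM in si-SCR against 36.1, 45.7 and 37.3 in si-CyCoNP, from 403, 379 and 407 counts and 1711, 1921 and 1527 counts. The lowest si-CyCoNP library stood far above all controls. The fitted fold was 4.02 (log2 2.01), and the alternatives gave log2 1.90 to 2.08. It moved from rank 60 to rank 10 among long noncoding RNA genes.

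It was the strongest noncoding increase by the size of its p, not by its fold. The next by p among the higher long noncoding RNAs were an unnamed gene, ENSG00000272405, at log2 1.42 (SE 0.138), and *MIAT*. By fold, 56 tested long noncoding RNA genes were above it, 15 of them past the threshold and 2 of them with at least 10 counts a library on average. By the gain in FPKM *NORAD*, a cytoplasmic RNA that binds Pumilio proteins, was ahead, from 81.7 to 135 FPKM.

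Markers of B cells were nearly absent beside it. Of 12 B cell markers 10 were at or under 3 counts in every library, 6 of these at 0 throughout. *MS4A1*, *CD22* and *JCHAIN*, which mark the lineage, were among those at 0. The summed level of the list was 6.93 to 7.45 FPKM in si-SCR against 9.85 to 11.2 in si-CyCoNP, nearly all of it from *PAX5*, a transcription factor also active in the developing brain, at 6.32 ± 0.548 and 9.11 ± 0.142 (log2 fold change 0.46, adjusted p = 0.000835). *IGHM* had 0.759 FPKM ± 0.339 and 1.25 ± 0.367 (adjusted p = 0.393), and all 5 haematopoietic markers stayed at or under 3 counts. The diversity segments of the heavy chain on the opposite strand inside *FAM30A* had at most 2 counts in a library. A same-strand gene inside it, ENSG00000244620, had 5, 9 and 7 counts in si-SCR against 18, 14 and 10 in si-CyCoNP, and shares no exon base with it in GENCODE v44. Of 6 tested protein-coding genes within 500 kb, *MTA1*, a subunit of the NuRD complex, was higher (0.61) and *CRIP2*, a LIM protein, lower (-1.06).

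Of 26 other well-known long noncoding RNAs 17 were tested, and 6 were higher and 1 lower, with a median of 0.08. *NORAD* rose by 0.66 on the log2 scale (SE 0.085, adjusted p = 8.42e-07). *CYTOR* and *MIR99AHG* each rose by 0.59 and *MIR17HG*, the host of the miR-17 cluster, by 0.51. *OIP5-AS1* was the 1 that fell (-0.34, adjusted p = 0.0072), a call lost without si-CyCoNP replicate 1 (0.087). *CYTOR*, at 0.717 FPKM in si-SCR and 1.13 in si-CyCoNP, passed the filter through si-CyCoNP only. In limma 3 of the list were higher and 0 lower with either pseudocount, and the calls on *CYTOR*, *MIR99AHG* and *OIP5-AS1* were among those lost. The calls on *CYTOR* and *MIR17HG* were also lost without si-CyCoNP replicate 3 (adjusted p = 0.0509 and 0.0542). The whole class of tested long noncoding RNA genes had 120 members called higher and 53 called lower.

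**Figure D5:**
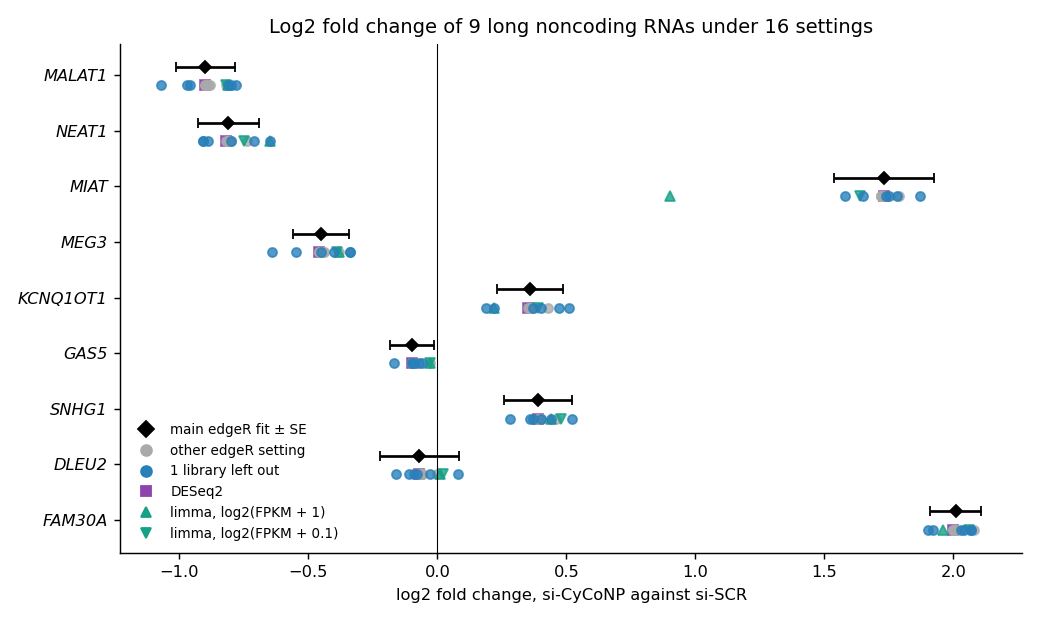
Log2 fold change of the 8 tested members and *FAM30A* under 16 settings: black diamonds are the edgeR fit as reported, with its SE, and the symbols below each diamond are the 15 alternatives. *MALAT1*, *NEAT1* and *MIAT* stay clear of 0 in all of them, *MEG3*, *KCNQ1OT1* and *SNHG1* keep their sign, and *DLEU2* straddles 0. *FAM30A* also stays clear of 0, but it was chosen on this contrast, so its row is a description only.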

How the data were processed

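Total RNA was sequenced by the authors after ribosomal RNA depletion with a stranded protocol and paired-end reads. The submitters' processing notes name Trimmomatic 0.39, cutadapt 3.2, Bowtie2 2.4.2, STAR 2.7.7a and GRCh38. The deposited counts are the authors' unique fragments per Ensembl gene, so near-identical copies are undercounted. The deposited FPKM values scale these counts by gene length and library total. Symbols, classes and coordinates came from GENCODE v44 (60357 of 60676 identifiers matched). The 13966 genes whose mean FPKM reached 1 in 1 or both groups entered edgeR 4.0.16 (TMM, glmQLFTest, R 4.3.3), 3 libraries against 3, with Benjamini-Hochberg adjustment over all of them. Groups and replicate numbers came from the sample titles. The study's methods name DESeq2, which was run as an alternative (1.42.0), as was limma 3.58.1. Errors are SD over libraries or SE. The SE of an edgeR fit is the absolute log2 fold change over the square root of its F statistic, so it restates the test. Counting error does not cover PCR duplicates. The script was tested on simulated counts. Members and lists were chosen with earlier results of these data known. The genes named were the members, their fixed partners, genes on a member's span, and up to 4 called genes with the largest change in each list. Neighbours within 500 kb and the region after *MEG3* were added after values had been seen.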

Additional observations from a re-analysis of the deposited data

How the results depend on the processing

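Log2 fold changes of named genes and counts of called genes in the lists were recomputed under up to 15 alternatives: another tool (DESeq2), 3 other scalings, 2 other filters, a replicate block, limma on 2 pseudocounts and each library left out in turn. The ratios of *MALAT1* to *NEAT1*, *MEG3* to *DLK1* and *GAS5* to *SNHG1* were recomputed with libraries left out only. Summed levels, ranks and counts within 500 kb were not recomputed. The log2 fold change of *LINC02381* kept its call throughout, from -4.16 to -2.90. The 3 higher members became 1 in DESeq2 and in limma with either pseudocount, and with a log2 change beyond 1 they were 1 higher and 0 lower. Genes changed were 319 higher and 416 lower with that minimum, and 1118 and 1113 lower in limma with pseudocounts of 1 and 0.1, against 1982 higher and 1990 lower as reported. The cause was not tested. Leaving out a library moved the difference of the *MALAT1* to *NEAT1* ratio between -0.15 and 0.04, and turned its sign without si-SCR replicate 2 (0.04). *DLEU2* turned to 0.01 and 0.02 in limma and 0.08 without si-SCR replicate 3, *NONO* to 0.04 with library totals alone and in both limma fits, *PSPC1* to 0.02 without si-SCR replicate 1 and *SF1* to 0.00 without si-SCR replicate 2 (range over libraries left out up to 0.14), and with libraries left out *DLEU2* ran from -0.16 to 0.08, *PSPC1* from -0.17 to 0.02, *MEG9* from -0.17 to 0.34, *RTL1* from -0.41 to 0.22, *FRMD8* from -0.10 to 0.22 and *NAP1L4* from -0.06 to 0.08; none of these passed in either direction. With the replicate number as a block, 3 members were higher and 3 lower, 2403 genes were higher and 2368 lower over all, and *DLK1* (adjusted p = 0.00344) and *SFPQ* (0.0107) were called in addition. Same-numbered libraries deviated together with correlations of 0.0907, 0.0727 and 0.108, and every si-SCR library correlated best with its own number; this is a hint from the data, not the design, and the numbers were not taken as pairs. Depth limits *H19*, *MIAT* and the microRNA and snoRNA genes, and says nothing of small RNAs.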
